A study of Mus musculus with 12 samples.

Results

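The 9 genes described here encode proteins of heart muscle, and their RNA was measured in whole mouse lung. They are Myl7, Myl4, Myh6, Actc1, Tnnt2, Tnni3, Ryr2, Pln and Nppa, taken by gene symbol from tables of 55491 annotated genes. In mice, heart muscle cells grow out of the left atrium along the pulmonary veins and form a sleeve around them inside the lung. These cells build sarcomeres from atrial-type myosin light chains and cardiac troponins, release calcium through the ryanodine receptor to contract, and can secrete atrial natriuretic peptide. They lie outside the alveolar tissue that bleomycin scars. Bulk tables cannot show whether the RNA of the 9 genes came from these cells alone.

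The lungs came from 12 wild-type (WT) male C57BL/6J mice, aged 10 weeks by the labels. Every mouse, the comparison groups included, had received bleomycin through the oropharynx at 0.0125 U per mouse, about 0.5 U per kg, a drug that injures the lung and leads to fibrosis. Lungs of 4 mice were taken at day 21 after intravenous nanoparticles (NP lungs). The particles had a poly(lactide-co-glycolide) (PLG) core and a poly(ethylene-alt-maleic anhydride) (PEMA) coat and measured 609.22 ± 15.30 nm across. They were injected behind the eye at 2 mg a day from day 14 to day 18, 5 doses in all. Lungs of 4 mice were taken at day 21 after intravenous saline (vehicle lungs), and lungs of 4 mice at day 14 without any injection (day 14 lungs). No lung without bleomycin was analysed here, so these data do not give the level of the genes in an uninjured lung. All 5 lobes were cut from the trachea and large airway and homogenised, and the labels do not say how much of the pulmonary veins came with them. Each library is 1 mouse.

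All 9 genes were above the detection limit in all 12 lungs. Libraries held 24138582 to 28910459 counts in NP lungs, 28001006 to 36208498 in vehicle lungs and 25706260 to 42714693 in day 14 lungs, and 3 counts correspond to at most 0.125 CPM (counts scaled by library size). The lowest count of any of the 9 genes was 18, for Nppa in NP replicate 3, and the highest was 8351, for Myh6 in vehicle replicate 3. All 9 passed the filter on low counts and are among the 17909 genes tested. Tests used edgeR's quasi-likelihood model on the counts of all 12 libraries, with Benjamini-Hochberg adjustment over the 17909 genes and a threshold of 0.05. Levels are given in TPM, transcript abundances that are scaled within each library and corrected for transcript length and so allow genes to be compared with each other.

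Genes listed as atrial and as ventricular were both measured, and bulk tables cannot place either in the vein. Among 10 other genes of an atrial list, mean levels ran from 0.00667 TPM for Bmp10, a ligand made by atrial muscle, to 67.2 TPM for Stard10. Sln, the atrial regulator of the calcium pump, lay between 6.31 and 16.8 TPM, and Nr2f2 and Tbx5, transcription factors that other lung cells also express, averaged 49.2 and 28.4 TPM. Of 6 genes of a ventricular list 4 passed the count filter. The transcription factor Irx5 lay between 10.48 and 20.46 TPM, the slow myosin heavy chain Myh7 between 5.58 and 13.4 TPM, the essential light chain Myl3 between 0.35 and 9.28 TPM, and the transcription factor Hey2 between 2.52 and 4.17 TPM. Myl2, the ventricular regulatory light chain, stayed at or below 0.73 TPM, and Irx4, another ventricular transcription factor, at or below 0.03 TPM. The list of ventricular genes is thus not at 0 as a whole.

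Of 15 skeletal muscle genes 9 passed the count filter. The 3 of highest mean level were Tnni2, a fast troponin I, at 3.01 to 14.3 TPM, Mybpc2, a fast myosin-binding protein, at 2.43 to 7.39 TPM, and Tnnt3, a fast troponin T, at 2.01 to 6.47 TPM. The actin Acta1 and the fast myosin heavy chains Myh1 and Myh4, picked after their values were seen, were at most at 0.38, 0.13 and 0.01 TPM. The 15 genes summed to 18.4 to 24.65 TPM in NP lungs, 21.99 to 30.7 TPM in vehicle lungs and 26.5 to 32.4 TPM in day 14 lungs. That sum had r = 0.01 with the heart muscle genes over 12 libraries (rho -0.22), and -0.70 without the 2 farthest lungs. Mybpc2 was the skeletal gene called, lower in NP over day 14 lungs (log2 fold change -0.81, edgeR adjusted p = 0.0151) and in vehicle over day 14 lungs (-0.67, edgeR adjusted p = 0.0399). Of all genes, 8.56% and 6.51% were called lower in these 2 comparisons. The NP call held in 12 of 12 fits with 1 library left out and in 6 of 8 other settings, and the vehicle call in 6 of 12 and 3 of 8.

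All 9 genes are protein-coding, and their positions are given on the GRCm38 build. Myl7 lies at chr11:5896637-5898782 on the minus strand and Myl4 at chr11:104550663-104595753 on the plus strand. Myh6 lies at chr14:54941921-54966927 (minus), Actc1 at chr2:114047282-114053548 (minus), Tnnt2 at chr1:135836354-135852260 (plus) and Tnni3 at chr7:4518305-4524229 (minus). Ryr2 lies at chr13:11553102-12106945 (minus), Pln at chr10:53337667-53345987 (plus) and Nppa at chr4:148000722-148002079 (plus). Myh6 shared 20.2% of its 50-base stretches with other annotated transcripts, the same share that it had in common with Myh7, the slow myosin heavy chain, so part of its count depends on how reads were divided between both genes. Annotated genes on the opposite strand overlap 61.5% of the exon bases of Nppa (Gm13054) and 59.6% of those of Pln (Gm47644). Gm13054 had at most 6 counts in any library and Gm47644 at most 34. Cep85l, also on the opposite strand, overlaps 5.11% of the exon bases of Pln and had 995 to 2372 counts, against 261 to 879 for Pln. Dnaaf3, on the same strand, overlaps 4.17% of those of Tnni3 and had 193 to 327 counts. Whether counting used strand is not given in the sources used here.

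Promoters of 4 of the genes are shown because the genes followed each other across lungs to different degrees. Myl7 and Actc1 kept close to the set, Nppa had the widest range, and Ryr2 was among the loosest. Each line gives the 250 bases before the RefSeq transcript start on the GRCm38.p6 build, read 5′ to 3′ on the gene's own strand. The windows are chr11:5898783-5899032 (minus) for Myl7, chr2:114052876-114053125 (minus) for Actc1, chr4:148000472-148000721 (plus) for Nppa and chr13:12106946-12107195 (minus) for Ryr2. Capitals mark the motifs that a search of both strands found.
Myl7: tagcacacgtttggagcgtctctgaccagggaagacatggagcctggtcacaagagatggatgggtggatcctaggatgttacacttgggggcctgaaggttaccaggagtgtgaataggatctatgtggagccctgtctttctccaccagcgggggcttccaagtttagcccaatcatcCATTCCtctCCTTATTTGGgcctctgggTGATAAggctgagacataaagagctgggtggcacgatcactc
Actc1: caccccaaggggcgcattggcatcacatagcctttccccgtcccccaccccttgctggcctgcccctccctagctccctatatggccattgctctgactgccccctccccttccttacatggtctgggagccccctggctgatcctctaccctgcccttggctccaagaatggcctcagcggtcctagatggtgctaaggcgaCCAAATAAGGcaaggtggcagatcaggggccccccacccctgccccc
Nppa: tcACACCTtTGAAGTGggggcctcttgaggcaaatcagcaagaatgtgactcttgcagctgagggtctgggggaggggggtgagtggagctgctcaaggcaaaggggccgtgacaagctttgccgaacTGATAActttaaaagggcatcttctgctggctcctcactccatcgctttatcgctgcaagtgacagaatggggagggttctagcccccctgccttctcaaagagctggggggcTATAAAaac
Ryr2: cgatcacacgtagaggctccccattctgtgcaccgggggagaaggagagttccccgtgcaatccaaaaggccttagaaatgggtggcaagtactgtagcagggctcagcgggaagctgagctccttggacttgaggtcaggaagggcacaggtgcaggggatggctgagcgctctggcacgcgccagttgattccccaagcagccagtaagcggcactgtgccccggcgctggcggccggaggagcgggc
The Myl7 window held a CArG box, the motif bound by serum response factor, 61 to 52 bases before the start, and the Actc1 window held one 47 to 38 bases before it. A CArG box was present in 2 of the 10 RefSeq windows of the 9 genes (Tnnt2 has 2 windows), against 1.47% of all 32851 mouse windows of this length. The MEF2 motif, bound by the myocyte enhancer factors, was in 0 of the 10 windows and in 2.92% of all windows. The GATA-type motif TGATAA was in 3 of the 10 windows, those of Myl7, Nppa and Pln, against 7.94% of all, and AGATAA was in 2 windows, those of Tnnt2 and Pln, against 9.99%. The MCAT element CATTCC was in 3 windows against 12.6% of all, the T-box half-site AGGTGT in 2 against 11.8%, and the TATA-type TATAAA in 2 against 12.4%. The NKX motif TNAAGTG was in 1 window, that of Nppa, against 10.1% of all. The Ryr2 window held 0 of these motifs, and so did that of Myl4, which followed the set with r = 0.90. The windows of Tnni3 and Tnnt2, which followed the set most closely (r = 0.96 and 0.95), held no CArG box. Whether these motifs go with how closely the genes followed each other was not tested. A match is a run of letters, not a measured binding site.

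**Figure D1:**
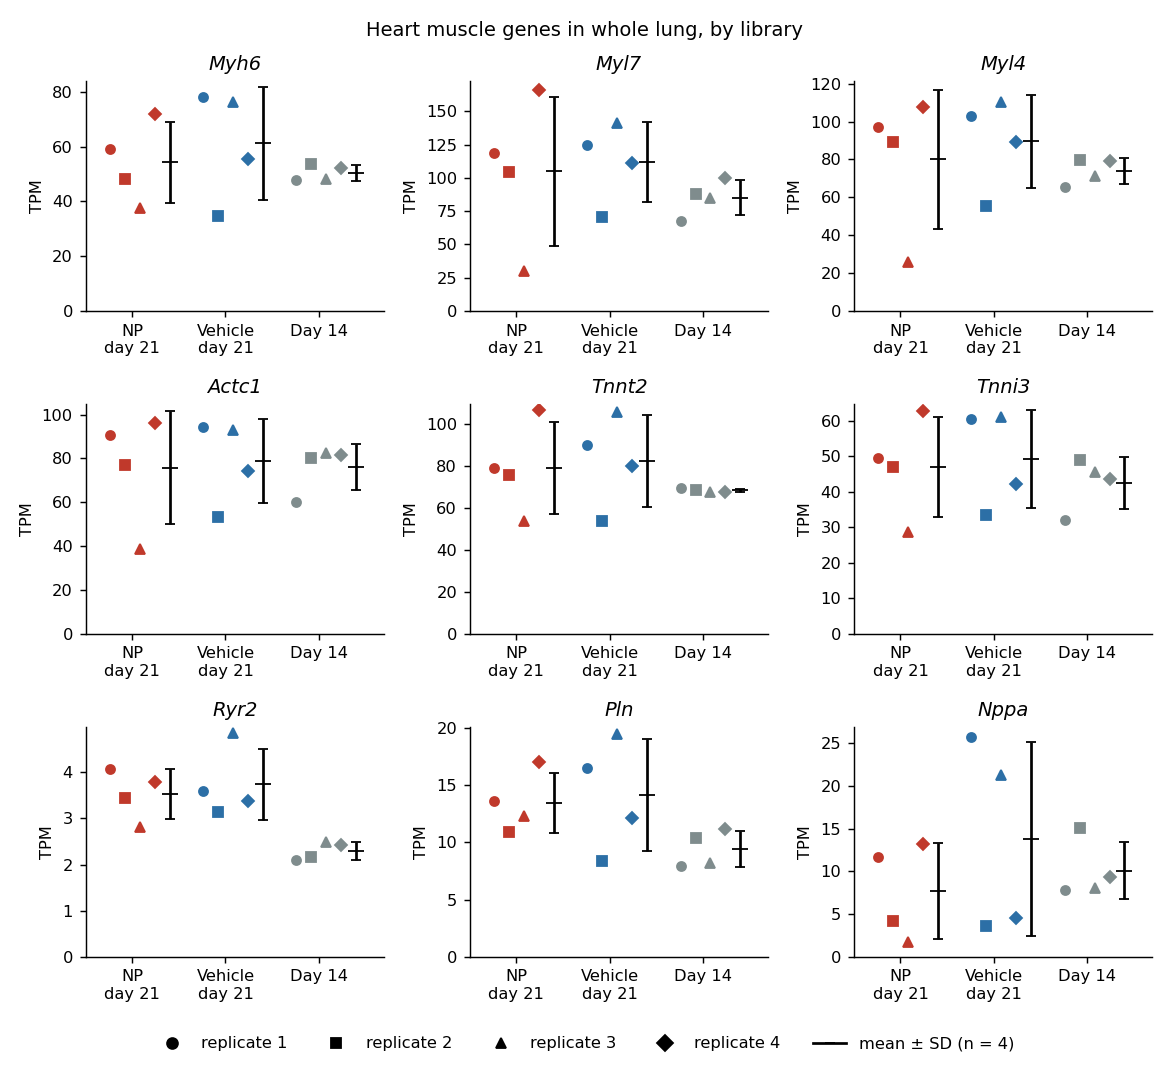
TPM of each of the 9 heart muscle genes in every lung, with NP lungs (red), vehicle lungs (blue) and day 14 lungs (grey) from left to right; marker shapes give the replicate number, and bars the mean ± SD of 4 lungs. Day 14 lungs lie close together in most panels, and NP replicate 3 and vehicle replicate 2 are low in most panels.

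Myl7, the regulatory light chain of atrial myosin, had the highest mean level of the 9 genes. Its TPM was 119, 105, 30.0 and 166 in NP lungs, 124, 70.8, 141 and 111 in vehicle lungs, and 67.8, 88.1, 85.1 and 99.6 in day 14 lungs. NP replicate 3 was the lowest of all 12 lungs and NP replicate 4 the highest, so NP lungs spanned a 5.53-fold range that covered both other groups. Myl7 averaged 105 ± 56.3 TPM in NP lungs, 112 ± 30.0 TPM in vehicle lungs and 85.2 ± 13.2 TPM in day 14 lungs (SD, n = 4 each). Its log2 fold change was -0.14 for NP over vehicle lungs, with a 95% interval of -1.01 to 0.73. It was 0.23 (-0.65 to 1.11) for NP over day 14 lungs and 0.37 (-0.51 to 1.24) for vehicle over day 14 lungs, so all 3 intervals held 0.

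Myl4, the atrial essential light chain of the same myosin heads, had a like pattern. Its TPM was 97.2, 89.2, 26.0 and 108 in NP lungs, 103, 55.4, 111 and 89.2 in vehicle lungs, and 65.5, 79.7, 71.5 and 78.9 in day 14 lungs. The groups overlapped, with NP replicate 3 lowest of all lungs and vehicle replicate 3 highest. For NP over vehicle lungs the log2 fold change of Myl4 was -0.17 (95% interval -0.99 to 0.64). It was 0.09 (-0.73 to 0.90) for NP over day 14 lungs, where limma on TPM gave the opposite sign, and 0.26 (-0.56 to 1.07) for vehicle over day 14 lungs.

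Myh6 encodes the alpha myosin heavy chain, a motor of mouse heart muscle, atrial and ventricular. Its TPM was 59.3, 48.1, 37.6 and 71.9 in NP lungs, 78.2, 34.5, 76.2 and 55.7 in vehicle lungs, and 47.8, 53.7, 48.0 and 52.2 in day 14 lungs. Vehicle replicate 2 was the lowest lung and vehicle replicate 1 the highest, and the 4 day 14 lungs fell inside the range of both day 21 groups. Myh6 had a log2 fold change of -0.11 for NP over vehicle lungs (95% interval -0.61 to 0.39). It was 0.28 (-0.22 to 0.78) for NP over day 14 lungs and 0.39 (-0.11 to 0.89) for vehicle over day 14 lungs.

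Actc1, the cardiac alpha actin of the thin filament, had a TPM of 90.8, 77.2, 38.9 and 96.3 in NP lungs, 94.1, 53.5, 93.0 and 74.1 in vehicle lungs, and 60.2, 80.1, 82.5 and 81.3 in day 14 lungs. In each group 1 lung stood below the others, NP replicate 3, vehicle replicate 2 and day 14 replicate 1. The group means were close to each other, at 75.8 ± 25.9 TPM in NP lungs, 78.7 ± 19.1 TPM in vehicle lungs and 76.0 ± 10.6 TPM in day 14 lungs (SD, n = 4 each). The log2 fold change of Actc1 was -0.06 for NP over vehicle lungs (95% interval -0.63 to 0.51). It was -0.02 (-0.60 to 0.55) for NP over day 14 lungs and 0.04 (-0.53 to 0.61) for vehicle over day 14 lungs.

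Tnnt2, cardiac troponin T, anchors the troponin complex on the thin filament. Its TPM was 79.2, 75.6, 53.6 and 107 in NP lungs, 89.8, 53.7, 106 and 80.0 in vehicle lungs, and 69.4, 68.7, 67.8 and 67.5 in day 14 lungs. The day 14 lungs were almost level with each other, and the day 21 groups reached both below and above them. For Tnnt2 the log2 fold change was -0.08 for NP over vehicle lungs (95% interval -0.58 to 0.41). It was 0.12 (-0.37 to 0.62) for NP over day 14 lungs and 0.21 (-0.29 to 0.70) for vehicle over day 14 lungs.

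Tnni3, cardiac troponin I, is the inhibitory subunit of that complex. Its TPM was 49.5, 46.9, 28.6 and 62.8 in NP lungs, 60.5, 33.4, 61.1 and 42.2 in vehicle lungs, and 32.1, 49.1, 45.6 and 43.5 in day 14 lungs. All groups overlapped, with NP replicate 3 the lowest lung and NP replicate 4 the highest. The log2 fold change of Tnni3 was -0.05 for NP over vehicle lungs (95% interval -0.55 to 0.45). It was 0.17 (-0.33 to 0.68) for NP over day 14 lungs and 0.22 (-0.28 to 0.73) for vehicle over day 14 lungs.

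Ryr2, the channel that releases calcium from the sarcoplasmic reticulum, had the lowest mean TPM of the 9 genes. Its TPM was 4.08, 3.44, 2.82 and 3.79 in NP lungs, 3.60, 3.14, 4.85 and 3.37 in vehicle lungs, and 2.10, 2.17, 2.50 and 2.43 in day 14 lungs. Every day 21 lung of either group lay above every day 14 lung on this scale. In CPM the groups overlapped, since NP replicate 3 (15.5 CPM) and vehicle replicate 2 (16.5 CPM) lay below day 14 replicates 3 and 4 (17.5 and 18.0 CPM). The log2 fold change of Ryr2 was 0.60 for NP over day 14 lungs (SE 0.24, 95% interval 0.08 to 1.13), with an edgeR quasi-likelihood p of 0.0274 and a Benjamini-Hochberg adjusted p of 0.112. It was 0.70 for vehicle over day 14 lungs (SE 0.24, 0.18 to 1.22), with an edgeR p of 0.0124 and an adjusted p of 0.082. Both intervals lay above 0, and both adjusted values missed the threshold. Between NP and vehicle lungs the log2 fold change was -0.10 (95% interval -0.61 to 0.41).

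Pln encodes phospholamban, which restrains the calcium pump of the sarcoplasmic reticulum. Its TPM was 13.7, 10.9, 12.3 and 17.0 in NP lungs, 16.5, 8.39, 19.5 and 12.2 in vehicle lungs, and 7.95, 10.4, 8.18 and 11.2 in day 14 lungs. Vehicle replicate 2 fell among the day 14 lungs, and NP replicate 2 lay just below the highest day 14 lung. In CPM the 4 NP lungs (14.3 to 21.6) lay above the 4 day 14 lungs (9.73 to 14.1), by a gap that is small beside the range of either group. The log2 fold change of Pln was 0.55 for NP over day 14 lungs (SE 0.22, 95% interval 0.06 to 1.03), with an edgeR adjusted p of 0.121. It was 0.58 for vehicle over day 14 lungs (SE 0.22, 0.09 to 1.06), with an edgeR adjusted p of 0.118. Between NP and vehicle lungs it was -0.03 (95% interval -0.51 to 0.45).

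The calls for Ryr2 and Pln depended on the method and on single lungs. DESeq2 called both genes higher at day 21, with adjusted p of 0.0352 for Ryr2 and 0.0489 for Pln in NP over day 14 lungs, and of 0.0141 for Ryr2 and 0.0409 for Pln in vehicle over day 14 lungs. In edgeR, leaving out NP replicate 3 brought Ryr2 in NP over day 14 lungs to an adjusted p of 0.0473. Leaving out vehicle replicate 2 brought vehicle over day 14 lungs to an edgeR adjusted p of 0.0462 for Ryr2 and 0.0305 for Pln.

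Nppa, which encodes atrial natriuretic peptide, a hormone that lowers blood volume and pressure, varied most. Its TPM was 11.7, 4.23, 1.74 and 13.2 in NP lungs, 25.7, 3.56, 21.3 and 4.59 in vehicle lungs, and 7.87, 15.01, 8.07 and 9.29 in day 14 lungs. In vehicle lungs 2 values were above every other lung in the study, and the other 2 were below every day 14 lung. NP lungs also held 2 values below every day 14 lung. Over all 12 lungs the highest Nppa level was 14.8 times the lowest. The log2 fold change of Nppa was -0.84 for NP over vehicle lungs (SE 0.71, 95% interval -2.41 to 0.74), with an edgeR adjusted p of 0.999. It was -0.41 (-2.002 to 1.19) for NP over day 14 lungs and 0.43 (-1.10 to 1.96) for vehicle over day 14 lungs, so the data leave wide bounds in all 3 comparisons.

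**Figure D2:**
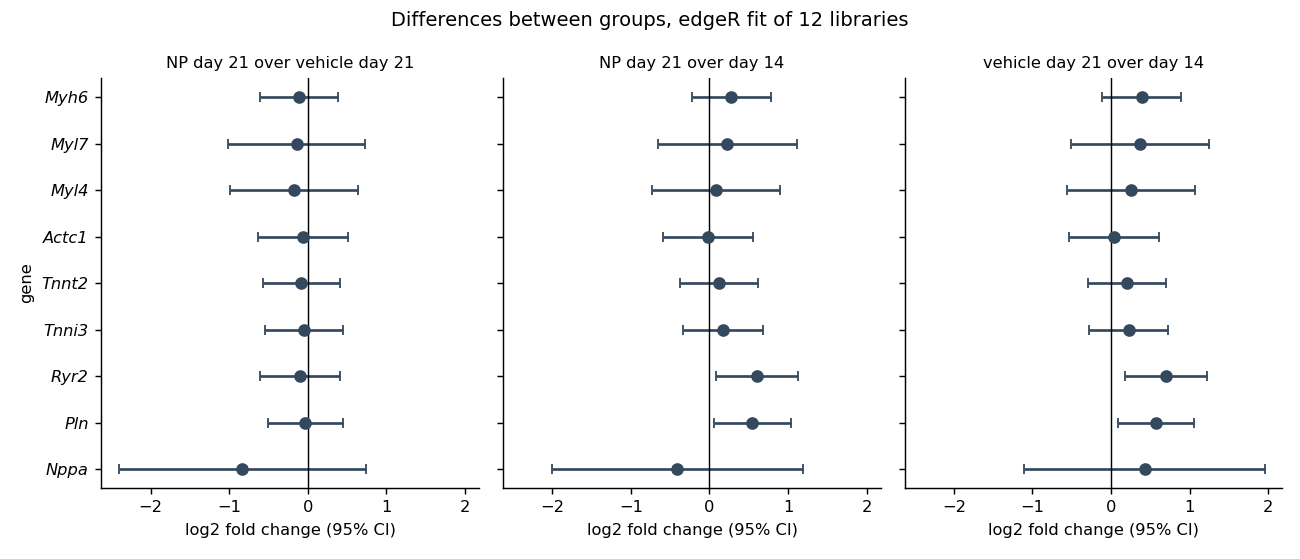
Log2 fold changes of the 9 genes in the 3 comparisons (dots) with 95% intervals from the edgeR fit of 12 libraries; 0 on the horizontal axis is no difference. All NP over vehicle intervals cross 0, and in both comparisons with day 14 lungs the intervals of Ryr2 and Pln lie above 0.

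The order of levels among the 9 genes was similar in the 3 groups. By mean TPM, Myl7 led in every group, and Ryr2 was the lowest in every group. Between them came close neighbours, with Myl4 at 80.0 ± 36.8 TPM, Tnnt2 at 78.8 ± 21.9 TPM and Actc1 at 75.8 ± 25.9 TPM in NP lungs (SD, n = 4), which differ by less than their spread. The same 3 genes lay at 89.6 ± 24.4, 82.3 ± 21.8 and 78.7 ± 19.1 TPM in vehicle lungs. In day 14 lungs they lay at 73.9 ± 6.71, 68.4 ± 0.841 and 76.0 ± 10.6 TPM, again close beside their spread. Myh6 and Tnni3 came next and lay within their spread of each other at day 21, at 54.2 ± 14.8 and 47.0 ± 14.1 TPM in NP lungs and 61.2 ± 20.5 and 49.3 ± 13.8 TPM in vehicle lungs. In day 14 lungs they lay at 50.4 ± 2.96 and 42.6 ± 7.38 TPM. Pln, at 13.5 ± 2.63 TPM in NP lungs, 14.1 ± 4.89 TPM in vehicle lungs and 9.42 ± 1.60 TPM in day 14 lungs, and Nppa stood below these structural genes. Nppa averaged 7.72 ± 5.60 TPM in NP lungs, 13.8 ± 11.4 TPM in vehicle lungs and 10.1 ± 3.36 TPM in day 14 lungs, and the ranges of Pln and Nppa overlapped in all 3 groups.

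NP lungs were set against vehicle lungs to see what the treatment did, and 0 of the 9 genes were called in that comparison. Of all 17909 genes tested in the same edgeR fit, 0% were called. At an unadjusted p under 0.05 the edgeR fit held 0 of the 9 genes and 4.25% of all genes, and DESeq2 called 0 of the 9 and 19 genes in all. In 0 of the 9 genes were the groups apart in TPM, against 3.07% of all genes. All 9 log2 fold changes were below 0, as were 49.2% of those of all genes, with a median of -0.10 over the 9 genes and 0.00 over all tested. The genes move together within a lung, so their 9 signs are not separate observations, and leaving out NP replicate 3 alone turned the sign of 7 of them. The 95% intervals of Myh6, Actc1, Tnnt2, Tnni3, Ryr2 and Pln lay between -0.63 and 0.51, which bounds the difference these data allow for them, and those of Myl7, Myl4 and Nppa were wider.

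At day 21 the means of most of the 9 genes lay above those at day 14, and edgeR called 0 of the 9 in either comparison. In NP over day 14 lungs 14.7% of all genes were called, and in vehicle over day 14 lungs 10.3%. Log2 fold changes were above 0 for 7 of the 9 genes in NP over day 14 lungs (median 0.17), against 51.1% of all genes. They were above 0 for 9 of 9 in vehicle over day 14 lungs (median 0.37), against 50.6% of all genes. Ryr2 and Pln, 2 of the 9, had an unadjusted edgeR p under 0.05 and a higher level in both comparisons, against 14.3% of all genes for NP over day 14 lungs and 12.3% for vehicle over day 14 lungs. In TPM, 1 of the 9 genes, Ryr2, was apart and higher in each of these comparisons, against 6.97% of all genes for NP over day 14 lungs and 5.64% for vehicle over day 14 lungs. In CPM 1 of the 9, Pln, was apart and higher in NP over day 14 lungs, against 8.47% of all genes. Counts of 1 or 2 of 9 cannot be set apart from these shares, and both comparisons use the same day 14 libraries. In bulk tissue, a difference in the number of muscle cells and a difference in RNA per cell cannot be told apart.

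Lungs within the day 21 groups differed more than the groups did. The summed TPM of the 9 genes was 524, 460, 232 and 646 in NP lungs, 596, 316, 633 and 472 in vehicle lungs, and 361, 447, 419 and 446 in day 14 lungs. NP replicate 3 was the lowest of its group in 8 of the 9 genes, all but Pln, and the lowest of all 12 lungs in 6. Vehicle replicate 2 was the lowest of its group in 9 of 9 genes, and day 14 replicate 1 in 8. NP replicate 4 was the highest of its group in 8 of 9 genes, and among vehicle lungs replicate 3 was the highest in 6 genes and replicate 1 in 3.

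**Figure D3:**
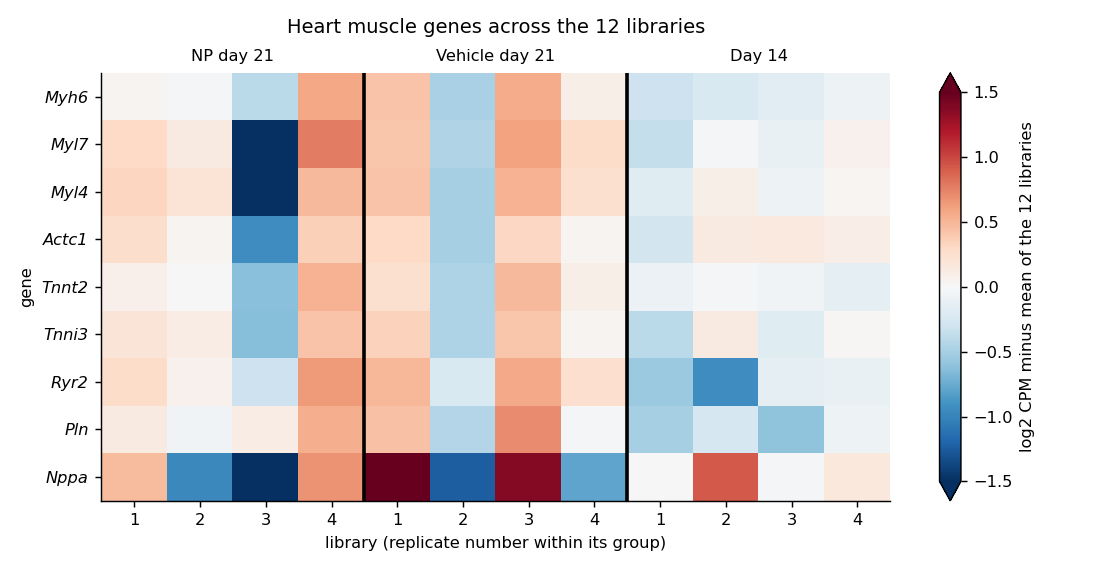
Log2 CPM of each gene (rows) in each lung (columns, by group and replicate) after subtracting the gene's mean over the 12 lungs; red is above and blue below that mean, and the colour scale ends at ± 1.5. Columns are mostly of 1 colour, as in NP replicate 3 and vehicle replicate 2 (blue) and vehicle replicates 1 and 3 (red).

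The spread between lungs was wider at day 21. The coefficient of variation (CV, the SD as a percentage of the mean) of TPM had a median over the 9 genes of 30.0% in NP lungs, 27.3% in vehicle lungs and 13.9% in day 14 lungs. Over all tested genes the median CV was 10.9% in NP lungs, 10.0% in vehicle lungs and 12.1% in day 14 lungs. The CV was lowest in day 14 lungs for 9 of the 9 genes, which held for 28.5% of all tested genes, and in CPM for 8 of 9, all but Ryr2, against 28.2%. For Tnnt2 the CV was 27.7% in NP lungs, 26.5% in vehicle lungs and 1.23% in day 14 lungs. For Nppa, the gene with the largest CV in each group, it was 72.5% in NP lungs, 82.4% in vehicle lungs and 33.4% in day 14 lungs. The count of 9 was 7 without NP replicate 3 and 7 without vehicle replicate 2. In CPM the count of 8 was 6 without NP replicate 3 and 5 without vehicle replicate 2. In TPM the share of all genes reached 45.1% without day 14 replicate 2. This count was chosen after the values were seen and has no test, and because the 9 genes move together it is not 9 separate observations.

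The genes followed each other across lungs, with Ryr2, Pln and Nppa the loosest. Correlations are descriptions over 12 libraries, which share 1 extraction protocol and 1 annotation, and carry no test. Over the 36 pairs of genes, Pearson's r of log2 CPM ran from 0.34 to 0.98, with a median of 0.79. Against the mean of the other 8, r was 0.96 for Tnni3 (Spearman's rho 0.94), 0.95 for Tnnt2 (0.90), 0.92 for Myl7 (0.96), 0.92 for Actc1 (0.87), 0.91 for Myh6 (0.94) and 0.90 for Myl4 (0.97). It was 0.76 for Nppa (0.71), 0.63 for Ryr2 (0.76) and 0.60 for Pln (0.75). Without NP replicate 3 and vehicle replicate 3, the lungs farthest from the median, r lay between 0.88 and 0.95 for the 6 sarcomere genes. It was then 0.54 for Nppa, 0.61 for Ryr2 and 0.89 for Pln.

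Ratios within a lung cancel a change that 2 genes share, and they showed where the set came apart. Myl7 over Tnnt2 was 0.561 in NP replicate 3, while the other lungs lay between 0.978 and 1.55. Myl4 over Tnnt2 was 0.485 in the same lung, against 0.944 or more in the others, so both light chains were lower there relative to troponin T. Actc1 over Tnnt2 was also lowest in that lung, at 0.726, against 0.868 or more in the others. Tnni3 over Tnnt2, at 0.535 there, lay within the range of the other lungs. Pln over Myh6 was 0.227 to 0.327 in NP lungs, 0.211 to 0.256 in vehicle lungs and 0.166 to 0.215 in day 14 lungs. In TPM NP lungs did not overlap day 14 lungs in this ratio, and vehicle lungs overlapped them by a small margin. In CPM NP and day 14 lungs did overlap. Pln and Myh6 were at 21.6 and 234 CPM in NP replicate 4, and at 14.1 and 149 CPM in day 14 replicate 4, which gives NP replicate 4 the lower ratio. Ryr2 over Myh6 was 0.0527 to 0.0751 in NP lungs, 0.0460 to 0.0909 in vehicle lungs and 0.0404 to 0.0521 in day 14 lungs, apart for NP and day 14 lungs and overlapping for vehicle and day 14 lungs. Nppa over Myh6 was 0.0463 to 0.197 in NP lungs, 0.0824 to 0.329 in vehicle lungs and 0.165 to 0.280 in day 14 lungs, and these ranges overlapped. The ratios were picked after the values were seen and were not tested.

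**Figure D4:**
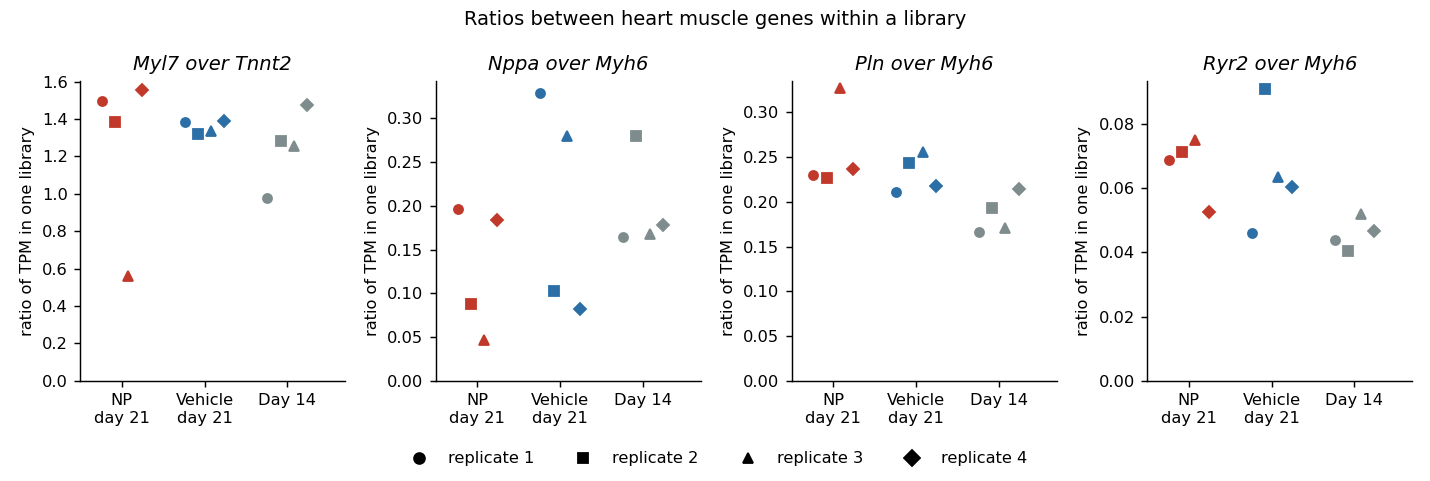
Ratio of the TPM of 2 genes in the same lung, for 4 gene pairs, with NP, vehicle and day 14 lungs from left to right and marker shapes for the replicate. Myl7 over Tnnt2 is 0.561 in NP replicate 3, and the medians of Pln over Myh6 and Ryr2 over Myh6 are lowest in day 14 lungs.

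The genes nearest to the set across the 12 lungs included many other muscle genes. The 12 tested genes with the highest Pearson r to the mean of the 9 were Art3 (0.97), Mybphl (0.97), Tcap (0.97), Mb (0.96), Hrc (0.94), Actn2 (0.94), Myom2 (0.94), Sbk3 (0.94), Myoz2 (0.93), Cyp2e1 (0.93), Tmem45b (0.93) and Tmem182 (0.93). Spearman's rho of these genes lay between 0.87 and 0.97. Tcap caps titin at the Z disc, Actn2 cross-links actin there, Mb is the oxygen store myoglobin, and Hrc binds calcium in the sarcoplasmic reticulum. An r above 0.7 was found for 1.65% of the tested genes. It was found for 13 of 20 other sarcomere genes, for 9 of 22 genes of calcium handling and conduction and for 8 of 11 genes in the list of muscle energy supply. The last list includes Corin (0.78), a protease of the natriuretic system rather than an energy supply gene. Other lists followed less, with 2 of 9 atrial genes, 1 of 4 ventricular genes, 1 of 6 cardiac transcription factors, 1 of 5 natriuretic genes and 0 of 6 venous endothelial genes.

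Few other genes of heart muscle were called. Of 63 genes in lists of sarcomere, calcium handling, energy supply and cardiac transcription factors, 59 were tested, and edgeR called 0 between NP and vehicle lungs, with 2 at an unadjusted p under 0.05. In vehicle over day 14 lungs 2 were called higher and 0 lower, against 3.79% and 6.51% of all genes, and 50 of 59 log2 fold changes were above 0 (median 0.17, against 0.00 over all tested). Csrp3, a Z-disc protein, rose in vehicle lungs to 21.1 ± 5.06 TPM, against 12.7 ± 1.92 TPM in day 14 lungs (log2 fold change 0.75, edgeR adjusted p = 0.0287). Cox6a2, the muscle subunit of cytochrome oxidase, rose in vehicle lungs to 23.96 ± 2.75 TPM, against 16.3 ± 2.77 TPM in day 14 lungs (log2 fold change 0.51, edgeR adjusted p = 0.0454). With 1 library left out, the call for Csrp3 held in 8 of 12 fits, and it was lost, with adjusted p up to 0.0917, without vehicle replicates 1 or 3 or day 14 replicates 1 or 3. The call for Cox6a2 held in 4 of 12 fits and reached an adjusted p of 0.13. It held only without NP replicates 2 or 3, vehicle replicate 2 or day 14 replicate 1. All 3 limma fits on TPM lost Csrp3 (adjusted p 0.0604 to 0.135), and Cox6a2 was lost in 3 of 8 other settings, with limma on all genes (0.0761 and 0.0817) and with only the 2 groups fitted (0.0531). Over the same lists the number called in vehicle over day 14 lungs was 4 with DESeq2, 1 with only the 2 groups fitted, 0 with limma on all genes and 1 with limma at a mean TPM of at least 1.

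In NP over day 14 lungs 2 of the 59 genes were called higher and 2 lower, against 6.16% and 8.56% of all genes. Cox6a2 rose in NP lungs to 24.4 ± 3.26 TPM, against 16.3 ± 2.77 TPM in day 14 lungs (log2 fold change 0.52, edgeR adjusted p = 0.0370). Eno3, the muscle enolase, rose to 25.7 ± 2.69 TPM in NP lungs, against 20.1 ± 2.93 TPM in day 14 lungs (0.44, edgeR adjusted p = 0.0293). Tpm1, a tropomyosin that smooth muscle also expresses, fell to 405 ± 31.3 TPM in NP lungs, against 467 ± 22.2 TPM in day 14 lungs (-0.22, edgeR adjusted p = 0.0289). Gja1, the gap junction protein connexin 43, which many cell types express, fell to 57.8 ± 9.39 TPM in NP lungs, against 74.3 ± 9.90 TPM in day 14 lungs (-0.37, edgeR adjusted p = 0.0420). With 1 library left out, these calls held in 5 of 12 fits for Cox6a2 (adjusted p up to 0.104), 7 for Eno3 (0.0922), 8 for Tpm1 (0.0864) and 6 for Gja1 (0.12). All 4 were lost without NP replicate 4 and without day 14 replicate 3, and each of the 12 libraries except vehicle replicates 2 and 4 cost at least 1 of them its call. In 8 other settings the calls held in 5 for Cox6a2, 5 for Eno3, 3 for Tpm1 and 2 for Gja1. Tpm1 and Gja1 were lost without the count filter (adjusted p 0.0509 and 0.0538), with the replicate block (0.0504 and 0.0818) and with only the 2 groups fitted (0.072 and 0.0695). Limma on all genes lost all 4, with adjusted p of 0.0503 to 0.161. Over the same lists the number called was 8 with DESeq2, 2 without the count filter, 0 with limma on all genes and 2 with limma at a mean TPM of at least 1.

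Between NP and vehicle lungs the 2 genes of highest mean level in each list had log2 fold changes from -0.23 for Mb to 0.094 for Mef2c, all with an edgeR adjusted p of 0.999. These were Tpm1 and Nebl of the sarcomere, Atp2a2 and Gja1 of calcium handling, Mb and Fabp3 of energy supply, the transcription factors Tbx5 and Mef2c, and Furin and Npr1 of the natriuretic system. Atp2a2, the calcium pump that phospholamban restrains and that many cell types express, had log2 fold changes of 0.019 for NP over day 14 lungs (edgeR adjusted p = 0.926) and 0.059 for vehicle over day 14 lungs (edgeR adjusted p = 0.754). Of the cardiac transcription factors 0 of 6 tested were called in any comparison. Of all genes, 0% were called in NP over vehicle, 14.7% in NP over day 14 and 10.3% in vehicle over day 14 lungs. Across the 12 lungs Pearson's r with the mean of the 9 genes was 0.15 for Cox6a2, 0.40 for Eno3, 0.00 for Tpm1 and -0.24 for Gja1, and 0.75 for Csrp3.

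Of the natriuretic list around Nppa, which does not hold Corin, 5 genes were tested. In vehicle over day 14 lungs 1 was called higher and 1 lower, against 3.79% and 6.51% of all genes. The receptor Npr1 rose in vehicle lungs to 56.2 ± 5.34 TPM, against 47.1 ± 3.78 TPM in day 14 lungs (log2 fold change 0.24, edgeR adjusted p = 0.0398). Furin, a protease that cleaves prohormones, fell to 50.7 ± 1.65 TPM in vehicle lungs, against 61.4 ± 4.79 TPM in day 14 lungs (-0.27, edgeR adjusted p = 0.0479). With 1 library left out, the call held in 6 of 12 fits for Npr1 (adjusted p up to 0.107) and in 4 of 12 for Furin (0.142). Both were lost without vehicle replicates 1, 3 or 4 or without day 14 replicates 1 or 3, and further single libraries cost Npr1 (day 14 replicate 2) or Furin (NP replicates 1 or 2, vehicle replicate 2) its call. In 8 other settings Npr1 held in 4 and Furin in 3. Furin was lost with RLE size factors (adjusted p = 0.0566 in edgeR) and without the count filter (0.0531), Npr1 with only the 2 groups fitted (0.0537), and both in all 3 limma fits (0.0583 to 0.175). In NP over vehicle and in NP over day 14 lungs 0 of the 5 genes were called, against 0% and 14.7% of all genes.

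Of the 4 tested genes of the ventricular list, 2 were called higher in both comparisons with day 14 lungs, Myh7 and Irx5. Of all genes, 6.16% were called higher in NP over day 14 lungs and 3.79% in vehicle over day 14 lungs. Bulk tables cannot place the 2 genes in heart muscle. Myh7 shares sequence with Myh6. It rose in vehicle lungs to 11.9 ± 1.72 TPM, against 7.505 ± 2.90 TPM in day 14 lungs (log2 fold change 0.71, edgeR adjusted p = 0.00954). In NP lungs it rose to 10.1 ± 1.69 TPM, against the same day 14 lungs (0.55, edgeR adjusted p = 0.0223). The call in vehicle over day 14 lungs held in 12 of 12 fits with 1 library left out. That in NP over day 14 lungs held in 9, and was lost, with adjusted p up to 0.0719, without NP replicate 2, day 14 replicate 1 or day 14 replicate 3. In 8 other settings the Myh7 call held in 5 for vehicle over day 14 lungs and was lost in the 3 limma fits (adjusted p 0.0727 to 0.161). For NP over day 14 lungs it held in 4, and was lost without the count filter (0.0583) and in the 3 limma fits (0.182 to 0.348). In TPM, day 14 replicate 2, at 11.8, lay above every NP lung and within the range of the vehicle lungs. Across the 12 lungs Myh7 had an r of -0.07 with the mean of the 9 genes. In NP replicate 3, the lung lowest in Myl7 and Myl4, Myh7 was at 11.1 TPM, the highest of its group.

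Irx5 rose in NP lungs to 17.7 ± 2.61 TPM, against 12.9 ± 2.13 TPM in day 14 lungs (log2 fold change 0.46, edgeR adjusted p = 0.0171). In vehicle lungs it rose to 18.6 ± 1.08 TPM, against the same day 14 lungs (0.53, edgeR adjusted p = 0.0114). With 1 library left out, the vehicle call held in 12 of 12 fits, and the NP call in 9, with adjusted p up to 0.0589 and the same 3 losses as Myh7. Limma on all genes lost both calls, with adjusted p of 0.0648 to 0.0926, and the other 6 of 8 settings kept them. Its r with the mean of the 9 genes was 0.35 over 12 libraries. Myl3, which was not called, had r = 0.73 with the same mean and its lowest level, 0.35 TPM, in NP replicate 3.

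Markers of other tissues that a lung sample could hold were measured in the same libraries. The summed TPM of 7 genes of adipose tissue followed the heart muscle genes, with r = 0.84 and rho = 0.79 over 12 libraries. Cfd, Plin1 and Adipoq had r of 0.81, 0.82 and 0.79, Cidec and Lep 0.69 and 0.64, and Cidea 0.05 (rho -0.13). Adipose sums were 57.2, 55.2, 38.7 and 76.8 TPM in NP lungs, 75.6, 33.9, 96.6 and 69.6 TPM in vehicle lungs, and 57.2, 80.9, 63.3 and 59.4 TPM in day 14 lungs. The lowest lung of each group was the same for the adipose and the heart muscle sums. The sum of 12 smooth muscle genes had r = 0.33 with the heart muscle genes (rho 0.36), and ranged from 638 to 711 TPM in NP lungs, 688 to 778 TPM in vehicle lungs and 653 to 899 TPM in day 14 lungs. The highest of these genes were Tagln, Acta2 and Mylk, at means of 146, 127 and 105 TPM. In NP over day 14 lungs 1 of the 12 was called higher (Synpo2) and 4 lower (Tagln, Tpm2, Actg2 and Smtn), against 6.16% and 8.56% of all genes. In vehicle over day 14 lungs 2 were called higher (Mylk and Synpo2) and 0 lower, against 3.79% and 6.51% of all genes. Of these calls, those of Tagln and Mylk held in 12 of 12 fits with 1 library left out, and the others in 5 to 10. In 8 other settings they held in 3 (Smtn, and Synpo2 in NP lungs) to 7 (Mylk). The sum of 4 mesothelial genes had r = -0.62 (rho -0.59), and -0.28 without the 2 farthest lungs. It was highest in NP replicate 3, at 117 TPM. The sums of ciliated airway and of platelet genes had r = 0.53 and 0.25 (rho 0.55 and 0.44). Without the 2 farthest lungs r was 0.55 for ciliated airway, 0.70 for platelet and 0.73 for adipose genes. Sums of venous endothelial and of airway cartilage genes had r = -0.17 and -0.10 (rho -0.27 and -0.26). The part of these other tissues in the spread of the heart muscle genes was not tested.

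**Figure D5:**
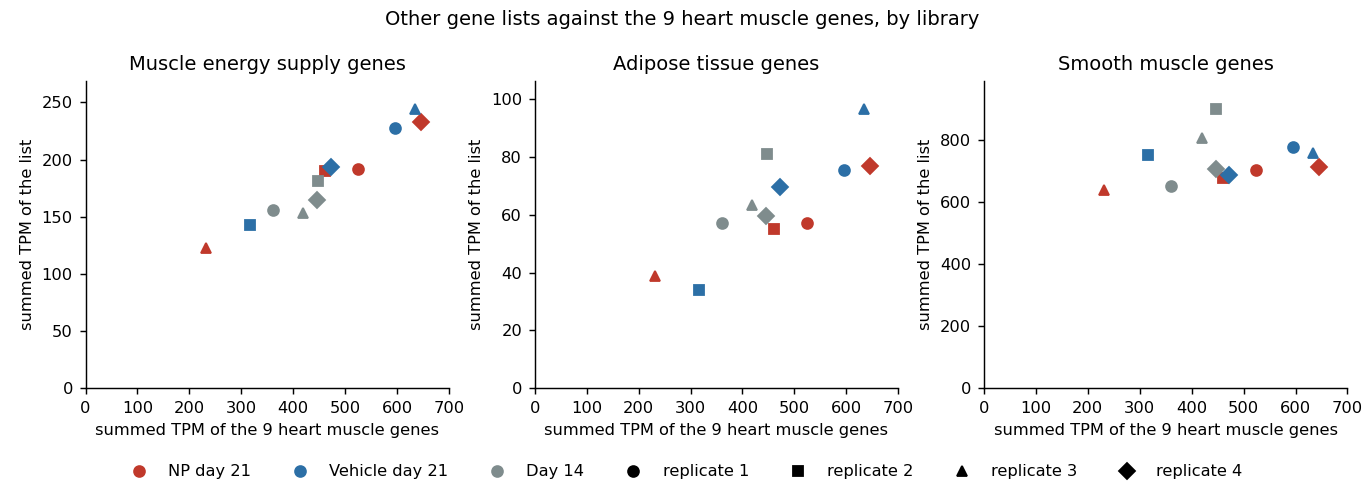
Summed TPM of 3 other gene lists (vertical axes) against the summed TPM of the 9 heart muscle genes (horizontal axes) in each of the 12 lungs; colours give the group and shapes the replicate. Sums of the muscle energy supply list (r = 0.97 on the log2 scale) and of the adipose list (0.84) follow the heart muscle genes. The energy supply list includes Corin, and the sum of smooth muscle genes follows less (0.33).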

How the data were processed

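RNA was sequenced from whole lungs of 12 mice in 3 groups of 4 as 151 bp read pairs from poly(A) libraries. Build GRCm38, the aligner STAR (2.7.8a), the quantifier RSEM (1.3.3), the trimmer cutadapt (4.8) and the quality tools MultiQC (1.20) and FastQC (0.11.8) are listed in the submitters' processing notes. The authors deposited expected counts per gene, estimates that need not be whole, and TPM, which is scaled to 1 total in all libraries. A gene annotation release and strand setting are not given in the sources used here. GENCODE M21 and RefSeq were used for positions, overlaps and promoters.

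Expected counts were rounded to whole numbers. Genes were kept by edgeR's filterByExpr (count minimum 10, total minimum 15), which left 17909 of 55491 genes, and 21736 genes had no count. Libraries were scaled by TMM, and all 12 entered 1 robust quasi-likelihood fit with edgeR 4.0.16 in R 4.3.3, two-sided, with Benjamini-Hochberg adjustment over all genes tested. CPM values use the TMM-scaled library sizes. The common biological CV of the fit was 0.119. Alternatives were RLE size factors, DESeq2 1.42.0, no count filter, 2 groups at a time, a replicate block, limma 3.58.1 on log2(TPM + 0.1) or log2(TPM + 1) or with a mean TPM of at least 1, and leaving out each library in turn. The fit was tested on simulated counts. Replicates differed by more than sampling noise, with chi-square values per degree of freedom of 7.52 to 30.0.

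Besides the 9 genes, the text names up to 4 called genes per heart list and comparison by smallest p (otherwise the 2 of highest mean TPM), the 12 genes nearest by Pearson's r, and the 3 ventricular, skeletal and smooth muscle markers of highest mean TPM. Other marker genes named were chosen after their values were seen. The 9 genes and the lists were chosen with earlier results of these data known. Intervals are 95% intervals of the fit, and the floor of 3 counts covers counting error only.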

Additional observations from a re-analysis of the deposited data

Results flagged for a closer look

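Of 78 groups of 4 lungs examined, over single genes and list sums, 5 held 1 lung far from the others by Dixon's criterion for 4 values, and chance alone gives about 1 in 20. Among the 9 genes there was 1 such lung. Actc1 was at 60.22 TPM in day 14 replicate 1, while the other day 14 lungs lay between 80.09 and 82.48 TPM. That lung was the lowest of its group in 8 of the 9 genes.

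In the lists of related genes 3 sums stood low, in 2 lungs. Summed TPM of calcium handling genes was 383.61 in vehicle replicate 2, against 427.01 to 434.72 in the other vehicle lungs. Summed TPM of natriuretic system genes was 207.9 in the same lung, against 238.47 to 241.24. Summed TPM of atrial genes was 216.83 in day 14 replicate 1, against 239.12 to 240.96 in the other day 14 lungs. Vehicle replicate 2 was also the lowest of its group in all 9 heart muscle genes. Across the 12 libraries r with the heart muscle genes was 0.55 for the calcium handling sum (rho 0.56) and 0.46 for the natriuretic sum (0.76). It was 0.18 for the atrial sum (0.37). These lists hold genes that other lung cells also express.

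Summed TPM of erythroid genes was 14358.1 in NP replicate 2, against 769.23 to 2631.11 in the other NP lungs. The 9 heart muscle genes summed to 460 TPM in that lung, between the other NP lungs. Across the 12 libraries the erythroid sum had r = 0.15 with the heart muscle genes (rho 0.01).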

How the results depend on the processing

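Of 27 log2 fold changes of the 9 genes, most kept their sign and side of the threshold under 8 other settings. Only the Myl4 difference between NP and day 14 lungs turned, to -0.0691 with limma on log2(TPM + 0.1), -0.0645 on log2(TPM + 1) and -0.0691 at a mean TPM of at least 1, and the cause was not tested. In NP over day 14 lungs the count of the 9 genes called was 2 with DESeq2 (Ryr2 and Pln), 1 with limma at a mean TPM of at least 1 (Ryr2) and 1 with only the 2 groups fitted (Pln). In vehicle over day 14 lungs it was 2 with DESeq2 and 1 with limma at a mean TPM of at least 1. Over all genes, NP over vehicle lungs gave 19 calls with DESeq2, 1 with limma on log2(TPM + 0.1) and 1 at a mean TPM of at least 1. NP over day 14 lungs gave 866, 824 and 1509 calls in these 3 limma fits and 1672 with only the 2 groups fitted, and vehicle over day 14 lungs gave 441, 381 and 943 in the limma fits.

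With 1 library left out, calls over all genes ranged from 1363 to 2934 in NP over day 14 lungs and from 719 to 2162 in vehicle over day 14 lungs, lowest without day 14 replicate 3 and highest without NP replicate 3 in both. The count of the 9 genes called ranged from 0 to 1 and from 0 to 2. In NP over vehicle lungs the sign of 8 of the 9 genes depended on single libraries, with ranges of -0.32 to 0.0303 for Myh6, -0.28 to 0.0891 for Tnnt2, -0.21 to 0.15 for Actc1, -0.44 to 0.17 for Myl7, -0.35 to 0.12 for Myl4, -0.20 to 0.13 for Tnni3, -0.28 to 0.0397 for Ryr2 and -0.20 to 0.17 for Pln. Nppa stayed between -1.22 and -0.37. In NP over day 14 lungs the ranges that held 0 were -0.0756 to 0.31 for Tnnt2, -0.16 to 0.20 for Actc1, -0.0716 to 0.54 for Myl7 and -0.0921 to 0.39 for Myl4. In vehicle over day 14 lungs they were -0.0558 to 0.20 for Actc1 and -0.0317 to 0.76 for Nppa.

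No pairing by replicate number was seen, with correlations between -0.0744 and 0.148 for the deviations of same-numbered lungs. Differently numbered lungs were not compared, and whether lungs shared a batch or litter was not tested. With the replicate block, calls were 0 in NP over vehicle, 2419 in NP over day 14 and 1673 in vehicle over day 14 lungs, with 0 of the 9 genes in each.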
